A study of Drosophila melanogaster with 15 samples.

Results

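The genes described here are 9 regulators of sex determination and dosage compensation in Drosophila melanogaster: Sxl, tra, tra2, dsx, fru, msl-2, mle, lncRNA:roX1 and lncRNA:roX2, the last pair written as roX1 and roX2. They were chosen by name and not by a rule on their counts, although earlier results of these data were known. Each matched a single FlyBase gene ID by its current symbol, so that they are 9 of the 17559 genes counted. RNA was sequenced from nuclei of the mushroom body (MB), the memory centre of the fly brain, isolated by INTACT. In INTACT a driver line puts a GFP-tagged nuclear envelope protein on the nuclei of a chosen cell type, and antibody beads pull these nuclei out of a head homogenate. The design crosses training with genotype and asks how training changed expression in each genotype. It also asks how expression differed between flies with and without RNAi against trx (trx-KD and control) in each treatment. The 15 libraries fall into 4 of trained trx-KD flies, 3 of naïve trx-KD flies, 4 of trained control flies and 4 of naïve control flies.

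The trx-KD flies carried P{GD4502}v37715 over UAS-unc84::GFP, with UAS-Dicer2 over R14H06-Gal4, in a w* background. P{GD4502}v37715 is an RNAi line against trx, which encodes the histone H3 lysine methyltransferase Trithorax. The control flies had the same w* background without the RNAi line, and both genotypes carried UAS-unc84::GFP, which encodes the nuclear tag, UAS-Dicer2, which enhances RNAi, and the R14H06-Gal4 driver. R14H06-Gal4 is expressed mainly in Kenyon cells, the intrinsic neurons of the MB, which limits both the tag and the knockdown to cells where the driver is active. Each library came from a pool of heads. The labels name the treatments only as trained and naïve. The labels give neither the sex nor the age of the flies, nor the time between training and freezing. Nothing in the labels says whether the pools came from separate crosses, so p-values measure the spread between these pools.

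In Drosophila the number of X chromosomes sets sex through Sxl, an RNA-binding protein made in females. Sxl directs the female splicing of tra and blocks translation of msl-2. Tra works with Tra2 on the splicing of dsx and fru, which encode transcription factors of sexual differentiation. The male forms of fru act in neurons and are required for courtship, and dsx acts in neurons and in tissues such as fat body, where it controls yolk protein genes. In males, Msl-2 joins the helicase Mle and the noncoding roX RNAs in the MSL complex, which raises transcription of the X chromosome. Because several of these genes are regulated by splicing, and the tables hold 1 count per gene, the values give the whole output of a gene and not its male or female form.

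Library totals ran between 14154045 and 45976562 gene counts, around a median of 24250938. Levels are given as CPM, the counts of a gene scaled to a common library size. The targeted gene trx was at 500.6 to 549 in the 7 trx-KD libraries and at 558 to 603 in the 8 control libraries, so that the ranges did not overlap. Its log2 fold change was -0.16 in trained flies (edgeR adjusted p = 0.0744) and -0.11 in naïve flies (edgeR adjusted p = 0.304). Kenyon cell markers were abundant in every library, with a sum of 12960 to 18600 CPM over 12 genes. Transcripts of other head cells were present too: the 6 fat body markers summed to 2709 to 6354 CPM and the 5 photoreceptor markers to 6218 to 13260 CPM. Most of the fat body sum was the lipoprotein transcript apolpp, at 2530 to 5072 CPM. The photoreceptor marker Arr2 had 0 CPM in every library. A pair of libraries stood apart. Replicate 4 of trained trx-KD flies held the yolk protein transcripts Yp1, Yp2 and Yp3 at 142, 111 and 103 CPM, whereas the other 14 libraries had at most 1.14, 1.86 and 12.2 CPM. Replicate 4 of naïve control flies had the highest fat body sum, 6354 CPM, and the highest photoreceptor sum, 13260 CPM. Called counts and calls of the 9 genes that changed without either library are given both ways, and no cause was tested.

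All 9 genes passed the filter on low counts in every comparison. Levels can be compared between genes only per length, so CPM was divided by the exon length of each gene in kilobases. On this scale roX1 was the most abundant of the 9, with a mean of 444.5 CPM per kb over the 15 libraries, and 29 of the 13426 genes ranked stood above it. The next were roX2 at 112, Sxl at 86.9 and fru at 71.8 CPM per kb. The rest were at lower levels, with mle at 22.7, tra at 16.9, msl-2 at 13.8, dsx at 13.1 and tra2 at 8.23 CPM per kb. The order of roX1, roX2, Sxl, fru and mle was the same in all 15 libraries. The neighbours msl-2 and dsx were not separated, since msl-2 was above dsx in 10 of 15 libraries, and tra was above msl-2 in 14.

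A gene was called when its p-value, adjusted by the Benjamini-Hochberg method over all genes of edgeR's quasi-likelihood test, was under 0.1. Training changed 1 of the 9 genes in trx-KD flies, where 0.534% of all genes tested were called, and 1 of 9 in control flies, where 4.38% were called. In both genotypes this gene was dsx. Between trx-KD and control flies, 4 of 9 were called in trained flies (roX1, roX2, fru and tra), where 13.9% of all genes were called. In naïve flies 2 of 9 were called (roX1 and roX2), where 14.2% of all genes were called. Whether lower trx gave these differences was not tested, as the genotypes also differ by the RNAi line itself. The difference of the training response between the genotypes was called for 0 of 9 genes and for 0% of all genes with edgeR, although 1055 genes had an unadjusted p under 0.05 and DESeq2 called 24 genes. These counts describe 9 named genes beside a background and are no test of the group.

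The background counts moved by over 1.5 times when some libraries were left out. For training in trx-KD flies 50 genes were called, against 147 and 160 without trained replicates 1 and 2, 12 without trained replicate 4, and 6, 4 and 16 without naïve replicates 1, 2 and 3. Of the 9 genes, 0 were called without trained replicate 4 or without any of the naïve replicates. For training in control flies 405 genes were called, against 258 and 230 without trained replicates 3 and 4 and 711 without naïve replicate 4, and dsx was called each time. Between trained genotypes 1284 genes were called, against 574 without trx-KD replicate 4 and 503, 672 and 495 without control replicates 2, 3 and 4, with 3 or 4 of the 9 genes called. Between naïve genotypes 1333 genes were called, against 500, 330 and 635 without trx-KD replicates 1, 2 and 3, 664 without control replicate 1 and 2558 without control replicate 4. Of the 9 genes, 4 were called in naïve flies without control replicate 4 (roX1, roX2, dsx and Sxl), 2 without trx-KD replicate 3 and 1 without each of the other 5 libraries.

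**Figure D1:**
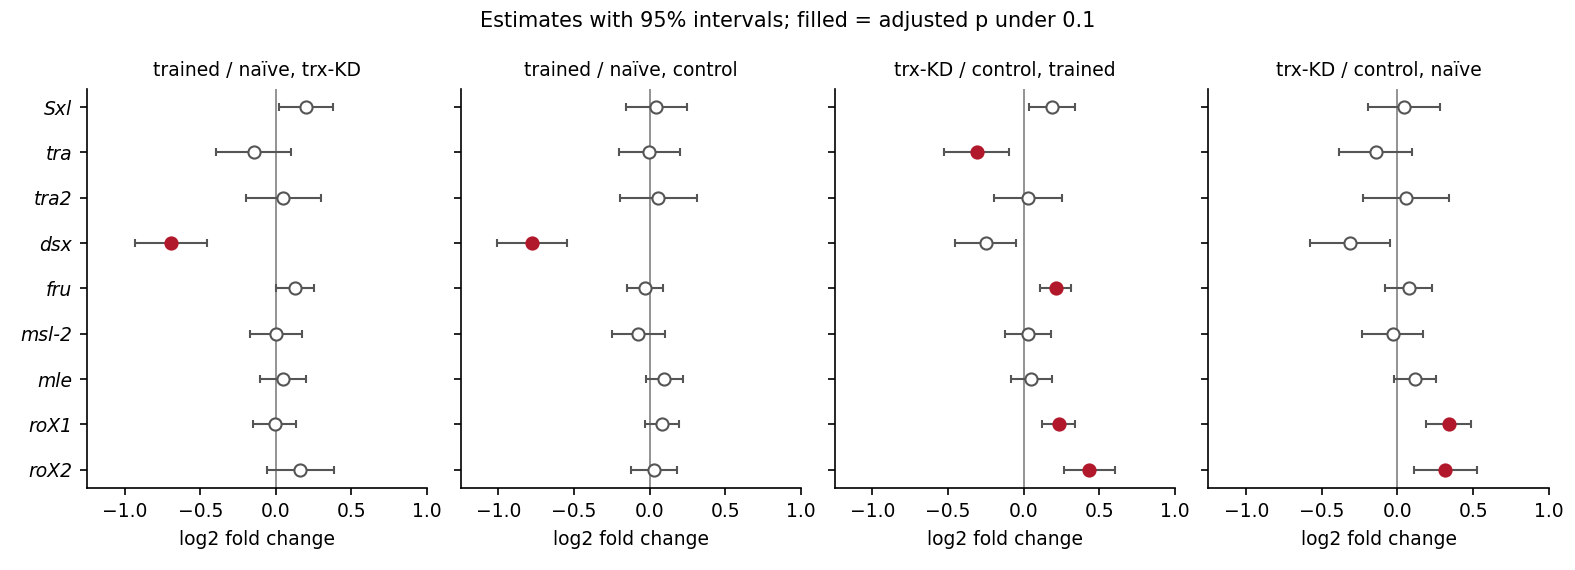
Log2 fold change (x axis) of the 9 genes (rows) in the 4 comparisons, with 95% intervals from edgeR's quasi-likelihood fit; filled points have an adjusted p under 0.1. The fall of dsx after training, -0.70 in trx-KD flies and -0.78 in control flies, is the largest estimate, and the roX genes stand above 0 in both comparisons of trx-KD with control flies.

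Among all genes the called ones split into 658 higher and 626 lower in trained trx-KD against trained control flies, and into 591 higher and 742 lower in the naïve comparison. This split depended on scaling. In trained flies it was 754 to 538 with upper-quartile scaling and 378 to 1031 with library-size scaling, and in naïve flies it was 735 to 618 and 443 to 820. The roX1, roX2 and fru calls between genotypes kept their direction and their call under both scalings.

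Expression of dsx fell after training in both genotypes. The gene (FBgn0000504, chr3R:7924323-7967408, minus strand) encodes the Doublesex transcription factor, which is spliced to a male or a female form. In trx-KD flies dsx had 78.1, 71.6, 96.0 and 86.9 CPM in the trained libraries, against 130.2, 124.8 and 151 CPM in the naïve libraries. In control flies it had 91.9, 96.3, 105.8 and 100.5 CPM in the trained libraries, against 158, 205.6, 169 and 136 CPM in the naïve libraries. In each genotype every trained library lay below every naïve library. The ranges of trained and naïve libraries did not overlap for 11.9% of all genes in trx-KD flies (1 of the 9, dsx) and for 10.1% in control flies (3 of the 9, dsx, roX1 and mle).

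The log2 fold change of dsx after training was -0.70 in trx-KD flies (SE 0.11, edgeR adjusted p = 0.0443) and -0.78 in control flies (SE 0.11, edgeR adjusted p = 0.00206). In linear terms the trained level was 0.617 of the naïve level in trx-KD flies and 0.584 of it in control flies. The difference between the responses was 0.07 (SE 0.16, edgeR adjusted p = 0.906), with a 95% interval from -0.28 to 0.41. In control flies the call was kept without any 1 of the 8 libraries, with estimates from -0.86 to -0.67. In trx-KD flies the estimates without 1 library lay between -0.77 and -0.61, but the call was lost without trained replicate 4, the library with yolk protein transcripts (-0.72, adjusted p = 0.157), and without each of the naïve libraries (adjusted p from 0.128 to 0.169).

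Of the fat body markers, 2 fell along with dsx in control flies, and none was called in trx-KD flies. In trx-KD flies the marker sum was 2709 to 4374 CPM in trained libraries and 3649 to 3877 CPM in naïve libraries, and 0 of the 5 markers tested were called. In control flies it was 3290 to 3535 CPM in trained libraries and 4486 to 6354 CPM in naïve libraries, and 2 of the 4 markers tested fell: the larval serum protein gene Lsp2 (-2.29, SE 0.31, edgeR adjusted p = 0.0019) and the lipoprotein gene apolpp (-0.48, SE 0.08, edgeR adjusted p = 0.0047). The difference between the responses was not called for either gene (1.84 for Lsp2 and 0.54 for apolpp, edgeR adjusted p = 0.363 for each). The fat body marker Fbp1 was at 0.912 CPM or less in every library. The part of fat body RNA in the dsx result was not tested, and in such bulk libraries fewer cells of a type and less RNA per cell cannot be told apart.

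**Figure D2:**
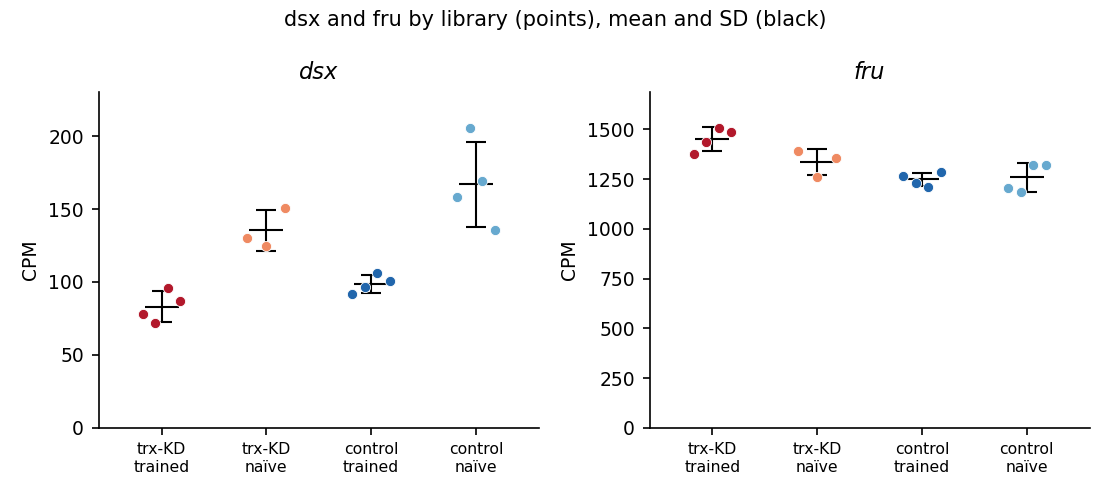
CPM (y axis) of dsx and fru in each library (points) of trained and naïve trx-KD and control flies, with the mean and SD of each group in black. The 4 trained libraries of each genotype lie below its naïve libraries for dsx, and for fru the trained trx-KD libraries, at 1375 to 1507 CPM, lie above the trained control libraries, at 1211 to 1286 CPM.

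Between genotypes dsx was not called. Trained trx-KD flies averaged 83.2 ± 10.6 CPM (SD, n = 4) and trained control flies 98.6 ± 5.93 CPM (SD, n = 4), a log2 fold change of -0.25 (SE 0.09, edgeR adjusted p = 0.115). Naïve trx-KD flies averaged 135 ± 13.8 CPM (SD, n = 3) and naïve control flies 167 ± 29.2 CPM (SD, n = 4), a log2 fold change of -0.31 (SE 0.12, edgeR adjusted p = 0.133). Both estimates lay near the threshold. Without naïve control replicate 4, which had the lowest dsx value and the highest fat body sum of its group, the naïve estimate was -0.40 (adjusted p = 0.00936), and without trained trx-KD replicate 3 the trained estimate was -0.33 (adjusted p = 0.0389). DESeq2 called the naïve difference (adjusted p = 0.0887), and library-size scaling (adjusted p = 0.0346) and the filter at 150 counts (adjusted p = 0.0899) called the trained one. The dsx exons share 169 bases, 1.84% of their length, with lds on the other strand, a gene at 3.9 CPM on average that was called in none of these comparisons. Fat body markers differed between the same groups, and their part in the dsx values was not tested. In trained flies 2 of the 5 markers tested were higher in trx-KD flies, Lsp2 (1.17, SE 0.24, edgeR adjusted p = 0.0203) and Yp1, which was high in replicate 4 alone, and the marker sums overlapped. In naïve flies 1 of 5 was lower in trx-KD flies, apolpp (-0.46, SE 0.09, edgeR adjusted p = 0.0153). The marker sums did not overlap, at 3649 to 3877 CPM in trx-KD libraries and 4486 to 6354 CPM in control libraries. Most of each sum was apolpp itself, at 3286 to 3365 CPM and 3903 to 5072 CPM, so the sums are not separate evidence.

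Expression of fru was higher in trained trx-KD flies than in trained control flies. The gene (FBgn0004652, chr3R:18414273-18545586, minus strand) encodes the Fruitless transcription factors, which carry BTB and zinc finger domains. Its level was 1375, 1436, 1507 and 1488 CPM in trained trx-KD libraries, against 1268, 1230, 1211 and 1286 CPM in trained control libraries. Every trained trx-KD library lay above every trained control library. The log2 fold change was 0.21 (SE 0.05, edgeR adjusted p = 0.0237), or 1.16-fold, and the call held without any 1 of the 8 libraries, with estimates from 0.19 to 0.25, and at 0.20 (adjusted p = 0.0839) without the library with yolk protein transcripts. In naïve flies fru had 1392, 1262 and 1354 CPM in trx-KD libraries, against 1207, 1184, 1320 and 1322 CPM in control libraries, and these ranges overlapped. The naïve estimate was 0.07 (SE 0.07, edgeR adjusted p = 0.576).

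Training did not give a call for fru in either genotype. The estimate was 0.13 (SE 0.06, edgeR adjusted p = 0.427) in trx-KD flies and -0.03 (SE 0.06, edgeR adjusted p = 0.87) in control flies. The difference between these responses was 0.14 (SE 0.08, edgeR adjusted p = 0.504), with a 95% interval from -0.02 to 0.31. Most Kenyon cell markers moved with fru between the genotypes of trained flies, as 8 of 12 were called higher and 0 lower. The uncalled estimates of ey (-0.06), dac (-0.05) and prt (-0.19) were below 0. The marker sum was 16340 to 18600 CPM in trx-KD libraries and 13810 to 15580 CPM in control libraries. A large part of it was mub, at 5957 to 7150 CPM and 4951 to 5619 CPM. In naïve flies 2 of the 12 markers rose, and the sum was 14540 to 15520 CPM in trx-KD libraries and 12960 to 15280 CPM in control libraries. The part of Kenyon cell RNA in the fru result was not tested.

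Partners and targets of fru and dsx were mostly not called. Of 14 genes listed, 13 were found and 12 were tested in all but the comparison of trained with naïve control flies, where 11 were tested, and training gave 0 calls in either genotype. In naïve flies the relaxin receptor gene Lgr3 fell to 23.1 ± 1.98 CPM in trx-KD flies (SD, n = 3), against 30.1 ± 4.71 CPM in control flies (SD, n = 4), with a log2 fold change of -0.40 (SE 0.12, edgeR adjusted p = 0.0711). In trained flies the only call was Yp1, a target of dsx, with a log2 fold change of 5.94 (SE 1.94, edgeR adjusted p = 0.0864). This call rested on replicate 4, as the other 3 trained trx-KD libraries stayed under the 1.14 CPM that the rest of the series reached. Among the other members of the list were the dsx cofactor ix and the ARID transcription factor gene retn, whose estimates lay between -0.18 and 0.03 in the 4 comparisons. Other uncalled members had larger estimates. The largest were those of yolk protein genes where trained trx-KD flies were compared, and replicate 4 alone was high there. They were 4.46 for Yp2 and 1.83 for Yp3 between trained genotypes. After training in trx-KD flies they were 5.95 for Yp1, 5.38 for Yp2 and 1.79 for Yp3. At very low CPM, Yp2 was at 1.11 after training in control flies and Yp1 at 0.57 between naïve genotypes. Lgr3 was at 0.33 after training in trx-KD flies. HDAC1 was at 0.26 after training in control flies and at -0.28 between trained genotypes. Between genotypes dsf was at -0.28 in trained and -0.26 in naïve flies, and bab2 at -0.23 and -0.21. Of the 12 genes tested, 4 had estimates above 0 between genotypes in each treatment.

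Sxl was not called in any comparison. The gene (FBgn0264270, chrX:7074550-7098053, minus strand) had 839.7, 800.1, 987.8 and 925 CPM in trained trx-KD libraries, against 723, 790.5, 810 and 790.4 CPM in trained control libraries. Its level was 833.5, 764 and 733 CPM in naïve trx-KD libraries, against 714, 661, 696 and 915 CPM in naïve control libraries. The highest naïve control value, 915 CPM, belongs to replicate 4, and both pairs of groups overlapped. The log2 fold change between genotypes was 0.18 in trained flies (SE 0.07, edgeR adjusted p = 0.124) and 0.04 in naïve flies (SE 0.11, edgeR adjusted p = 0.847). The naïve estimate became 0.16 (adjusted p = 0.0678) without naïve control replicate 4, and the trained estimate passed the threshold with DESeq2 (0.20, adjusted p = 0.0689), with upper-quartile scaling (0.20, adjusted p = 0.0884) and without trained trx-KD replicate 1 or 2 (0.23 for each, adjusted p = 0.0689 and 0.048). After training the estimate was 0.20 in trx-KD flies (SE 0.08, edgeR adjusted p = 0.389) and 0.04 in control flies (SE 0.09, edgeR adjusted p = 0.896).

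All 10 listed cofactors of Sxl, which act in its splicing or in m6A methylation of its RNA, were tested. In trained flies 2 of 10 were lower in trx-KD flies and 0 were higher: the m6A methyltransferase gene Mettl3 (-0.48, SE 0.14, edgeR adjusted p = 0.06) and Flacc, a subunit of the same methylation complex (-0.58, SE 0.16, edgeR adjusted p = 0.0488). In naïve flies the splicing factor gene Spf45 was lower (-0.40, SE 0.10, edgeR adjusted p = 0.0368) and the m6A reader gene Ythdc1 was higher (0.17, SE 0.06, edgeR adjusted p = 0.0899). The list's median estimate was -0.15 in trained and 0.09 in naïve flies, beside -0.03 and -0.02 over all genes. Training called 0 of 10 in either genotype. Of the 8 genes found that count X chromosomes in the embryo or act at the Sxl promoter, 3 passed the filter in every comparison and 0 were called. The genes sc and emc of this list had 0 CPM in every library, and the reason was not tested.

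Expression of tra was lower in trained trx-KD flies than in trained control flies, at a low level. The gene (FBgn0003741, chr3L:16590059-16591050, minus strand) encodes the splicing regulator Transformer. It had 13.1, 13.3, 11.8 and 12.8 CPM in trained trx-KD libraries, against 16.6, 16.4, 14.1 and 15.8 CPM in trained control libraries, so that the groups did not overlap. In naïve flies it had 15.6, 13.7 and 13.1 CPM in trx-KD libraries, against 15.5, 15.4, 14.2 and 17 CPM in control libraries, which overlapped. The log2 fold change was -0.31 in trained flies (SE 0.10, edgeR adjusted p = 0.0774) and -0.14 in naïve flies (SE 0.11, edgeR adjusted p = 0.454). The trained call lay close to the threshold and was lost with upper-quartile scaling (adjusted p = 0.106), with no filter on low counts (adjusted p = 0.124) and without 5 of the 8 libraries, namely control replicates 1, 2 and 4 and trx-KD replicates 3 and 4 (adjusted p from 0.131 to 0.194). The tra exons share 74 bases, 8.58% of their length, with l(3)73Ah on the other strand, which averaged 23.1 CPM and had a log2 fold change of -0.06 (edgeR adjusted p = 0.824) in the same comparison. Because the strand setting of the counting is not given in the sources used here, reads in this stretch cannot be assigned with certainty.

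After training tra had an estimate of -0.15 in trx-KD flies (SE 0.11, edgeR adjusted p = 0.624) and 0.00 in control flies (SE 0.09, edgeR adjusted p = 0.997). Its partner gene tra2 (FBgn0003742, chr2R:14602004-14604337, minus strand) had 13.8 to 17.4 CPM in trained and 14.6 to 15.8 CPM in naïve trx-KD libraries, and 14.8 to 16.6 CPM in trained and 11.9 to 17.2 CPM in naïve control libraries. All 4 groups overlapped, and the tra2 estimates of the 4 comparisons lay between 0.03 and 0.06. Among the splicing partners of Tra and Tra2, the SR protein gene B52 was higher in trained trx-KD than in trained control flies (0.14, SE 0.04, edgeR adjusted p = 0.0653), and it was not called in the other comparisons.

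**Figure D3:**
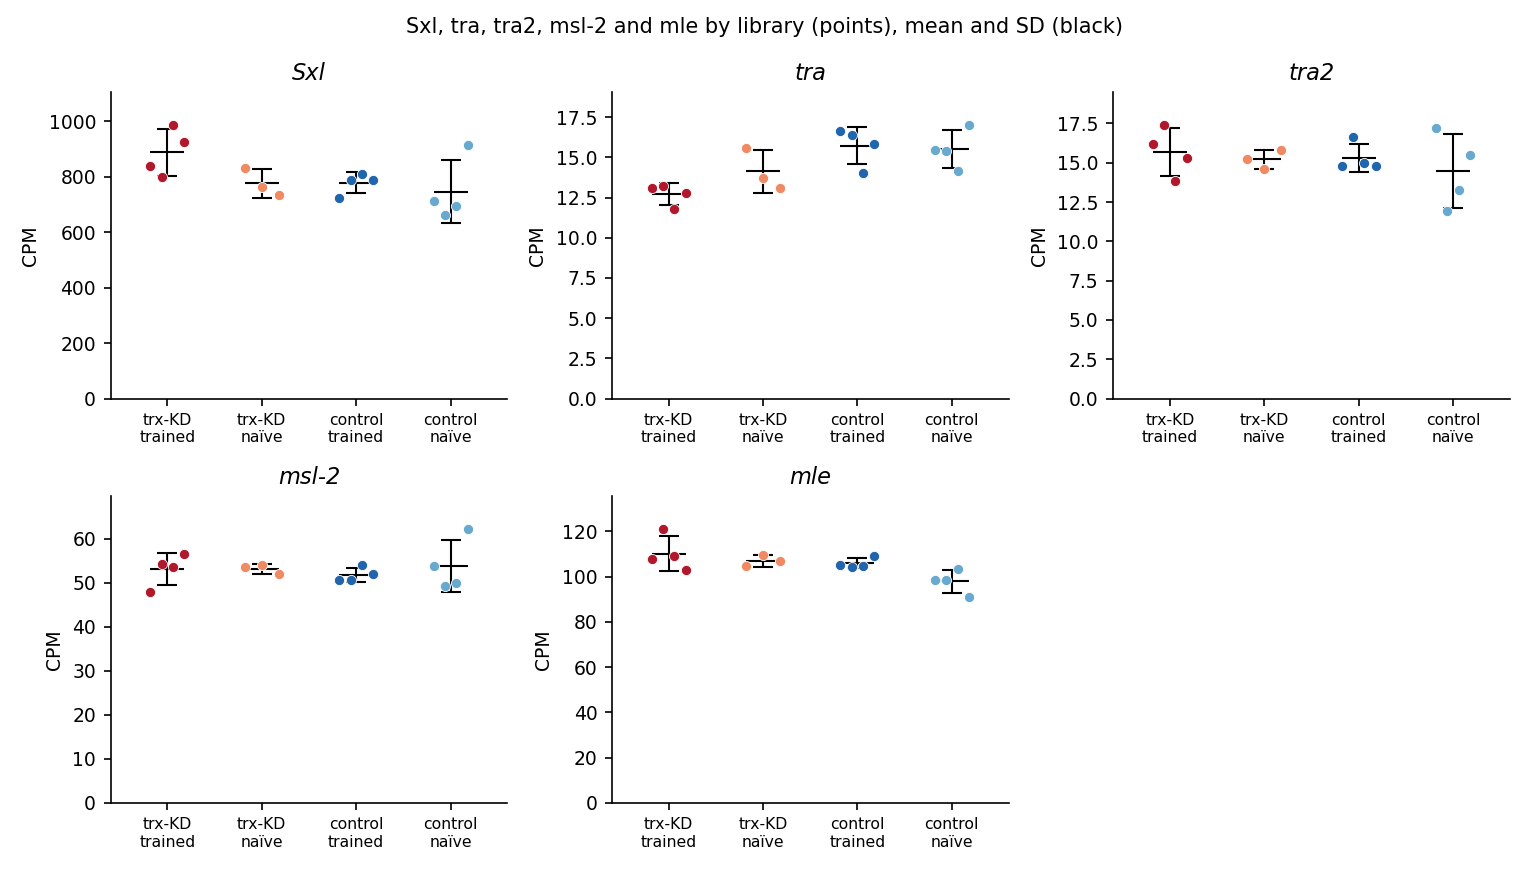
CPM (y axis) of Sxl, tra, tra2, msl-2 and mle in each library (points) of trained and naïve trx-KD and control flies, with the mean and SD of each group in black. The trained trx-KD libraries lie below the trained control libraries for tra, at 11.8 to 13.3 CPM against 14.1 to 16.6 CPM, and the groups overlap in both treatments for Sxl, tra2 and msl-2.

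Both roX RNAs were higher in trx-KD than in control flies, in both treatments. For roX1 (FBgn0019661, chrX:3857230-3862697, minus strand) the level was 2624, 2495, 2838 and 2776 CPM in trained trx-KD libraries, against 2239, 2312, 2340 and 2224 CPM in trained control libraries. In naïve flies it was 2879, 2685 and 2560 CPM in trx-KD libraries, against 2170, 2212, 2020 and 2087 CPM in control libraries. Every trx-KD library lay above every control library, whatever the treatment. The log2 fold change of roX1 was 0.23 in trained flies (SE 0.05, edgeR adjusted p = 0.0231), or 1.17-fold, and 0.34 in naïve flies (SE 0.07, edgeR adjusted p = 0.0155), or 1.26-fold. Both calls held without any 1 library, with estimates from 0.20 to 0.27 in trained and from 0.29 to 0.38 in naïve flies.

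For roX2 (FBgn0019660, chrX:11579065-11580432, plus strand) the level was 169, 167, 204 and 196 CPM in trained trx-KD libraries, against 145, 134, 135 and 129.6 CPM in trained control libraries. In naïve flies it was 188, 156 and 152 CPM in trx-KD libraries, against 124, 131, 123 and 149 CPM in control libraries. The trx-KD libraries again all lay above the control libraries, with the smallest gap between 152 and 149 CPM in naïve flies. The log2 fold change of roX2 was 0.43 in trained flies (SE 0.08, edgeR adjusted p = 0.0127), or 1.35-fold, and 0.32 in naïve flies (SE 0.10, edgeR adjusted p = 0.0675), or 1.24-fold. The trained call held without any 1 of the 8 libraries. The naïve call was lost without 5 of the 7 libraries, namely control replicates 1, 2 and 3 and trx-KD replicates 1 and 2 (adjusted p from 0.125 to 0.263), and was firmer without control replicate 4 (0.39, adjusted p = 0.00376).

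Over all genes, the 7 trx-KD and 8 control libraries did not overlap for 4.35%, and roX1 and roX2 were 2 of the 9 genes that met this. Within treatments the share of genes without overlap was 17.9% in trained flies (4 of the 9) and 23.2% in naïve flies (3 of the 9, roX1, roX2 and mle). Without the library with yolk protein transcripts the trained estimates were 0.22 for roX1 (adjusted p = 0.0822) and 0.40 for roX2 (adjusted p = 0.0537). The exons of roX1 share 392 bases, 7.17% of their length, with ec on the other strand, which averaged 26.6 CPM and had log2 fold changes of -0.20 in trained and -0.10 in naïve flies, neither of them called. Among the 10 genes tested on each side, 2 of 20 were called around roX1 and 2 of 20 around roX2 in trained flies, and 1 and 2 of 20 in naïve flies. None of the called neighbours of roX2 had its direction. Around fru and tra 1 of 20 was called in trained flies. The Kenyon cell marker sums given with fru differed between the same trained libraries. The fat body sums given with dsx, which are mostly apolpp, did not overlap between the naïve genotypes. Lsp2 was higher in trained trx-KD than in trained control flies. The part of either cell type in the roX1, roX2, fru and tra values was not tested.

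**Figure D4:**
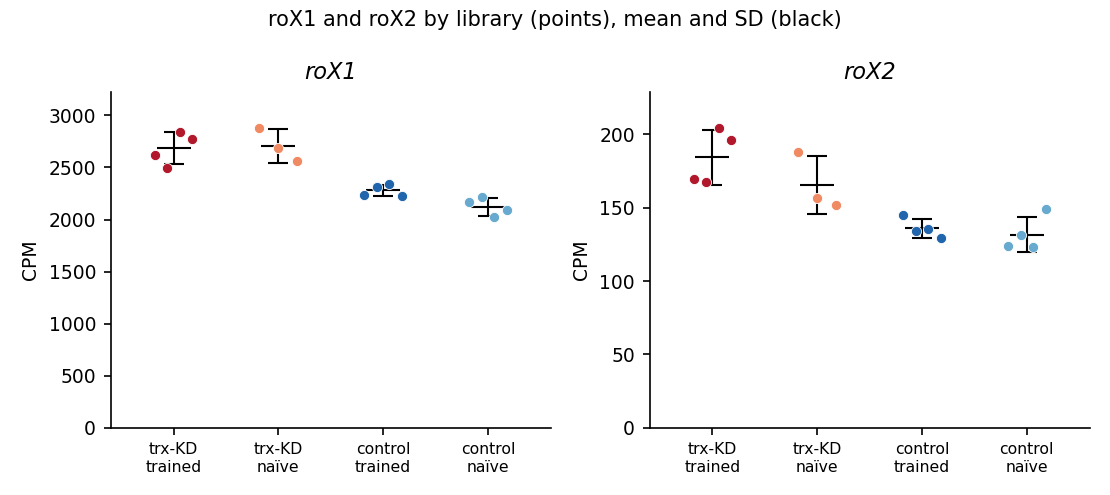
CPM (y axis) of the roX1 and roX2 RNAs in each library (points) of trained and naïve trx-KD and control flies, with the mean and SD of each group in black. The 7 trx-KD libraries, at 2495 to 2879 CPM for roX1 and 152 to 204 CPM for roX2, all lie above the 8 control libraries, at 2020 to 2340 CPM and 123 to 149 CPM.

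Training gave no call for either roX RNA. The estimates for roX1 were -0.01 in trx-KD flies (SE 0.06) and 0.08 in control flies (SE 0.05), and those for roX2 were 0.16 (SE 0.10) and 0.03 (SE 0.07), with edgeR adjusted p from 0.542 to 0.974. In control flies each trained library had more roX1 than each naïve library, 2224 to 2340 CPM against 2020 to 2212 CPM. The ratio of roX2 to roX1 counts does not depend on scaling, and roX1 had 13.9 to 17.5 times the counts of roX2. The mean log2 ratio was -3.87 ± 0.07 in trained trx-KD flies and -4.07 ± 0.08 in trained control flies (SD, n = 4 each), a difference of 0.20 by an exact two-sided permutation test over 70 labellings (p = 0.0571, or 0.343 adjusted over 8 tests). Trained trx-KD flies differed from naïve trx-KD flies, at -4.04 ± 0.09 (SD, n = 3), by 0.17 (exact permutation p = 0.0857, or 0.343 adjusted). The smallest p that these designs allow is 0.0286.

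Neither msl-2 nor mle, whose proteins join the roX RNAs, was called. For msl-2 (FBgn0005616, chr2L:3462218-3466112, minus strand), the male-limiting subunit, the level was 47.9, 54.2, 53.6 and 56.6 CPM in trained trx-KD libraries, against 50.6, 50.6, 54 and 51.9 CPM in trained control libraries. In naïve flies it was 53.5, 54 and 51.9 CPM in trx-KD libraries, against 53.8, 49.2, 49.9 and 62.2 CPM in control libraries. All these groups overlapped. The msl-2 estimates of the 4 comparisons lay between -0.07 and 0.03, and their 95% intervals lay within -0.25 and 0.18.

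The helicase gene mle (FBgn0002774, chr2R:5974857-5980778, minus strand) had 107.6, 121, 109 and 103 CPM in trained trx-KD libraries, against 105.3, 104.4, 104.9 and 109 CPM in trained control libraries. In naïve flies it had 104.5, 109.6 and 106.9 CPM in trx-KD libraries, against 98.5, 98.7, 103.2 and 90.9 CPM in control libraries. The naïve control libraries were the low group, below both the naïve trx-KD and the trained control libraries. Neither difference was called, with a log2 fold change of 0.12 between naïve genotypes (SE 0.06, edgeR adjusted p = 0.289) and 0.10 after training in control flies (SE 0.06, edgeR adjusted p = 0.513).

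The other MSL subunits showed small differences between genotypes. Of 7 genes listed as MSL subunits and partners, 6 were found and tested in every comparison. In trained flies the scaffold gene msl-1 fell to 67.3 ± 4.77 CPM in trx-KD flies, against 76.9 ± 2.08 CPM in control flies (SD, n = 4 each), with a log2 fold change of -0.20 (SE 0.07, edgeR adjusted p = 0.0887). In naïve flies the histone acetyltransferase gene mof fell to 12.6 ± 0.24 CPM in trx-KD flies (SD, n = 3), against 15.3 ± 1.22 CPM in control flies (SD, n = 4), with a log2 fold change of -0.29 (SE 0.10, edgeR adjusted p = 0.0954). The estimate of mof was -0.30 in trained flies as well, where it was not called (SE 0.16, edgeR adjusted p = 0.267). The chromodomain subunit gene msl-3 had estimates of -0.23 in trained and -0.01 in naïve flies (edgeR adjusted p = 0.266 and 0.953). Training called 0 of the 6 in either genotype.

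Because the X chromosome is the target of the MSL complex, its output was compared with that of the autosomes in each library. The measure was the median log2 CPM of 1356 X-linked genes minus that of 6938 genes on the major autosomes. It was not corrected for exon length. It averaged 0.30 ± 0.03 in trained trx-KD flies and 0.28 ± 0.03 in trained control flies (SD, n = 4 each), a difference of 0.03 by an exact two-sided permutation test (p = 0.257, or 0.514 adjusted over 8 tests). In naïve flies it averaged 0.31 ± 0.02 in trx-KD flies (SD, n = 3) and 0.27 ± 0.05 in control flies (SD, n = 4), a difference of 0.05 (exact permutation p = 0.2, or 0.514 adjusted). The difference of trained from naïve libraries was -0.01 in trx-KD flies and 0.01 in control flies, neither past the threshold (exact permutation p = 0.714 and 0.686). With genes of at least 10 CPM only, the genotype differences took the other sign, -0.04 in trained and 0.00 in naïve flies. The training difference in control flies was then 0.03 (exact permutation p = 0.0857, not adjusted). Per kb of exon, the log2 ratio of the X median to the autosome median was lower, and it was not tested. In naïve flies this ratio was 0.053, 0.114 and 0.076 in trx-KD libraries, against 0.016, 0.014, 0.031 and 0.058 in control libraries. In trained flies it was 0.048, 0.081, 0.065 and 0.05 in trx-KD libraries, against 0.063, 0.05, 0.06 and 0.061 in control libraries.

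Fold changes were also summarised by chromosome. X-linked genes had a median log2 fold change of -0.04 and autosomal genes one of -0.03 between genotypes of trained flies, with 14.3% and 13.4% called. In naïve flies the medians were -0.01 and -0.02, with 12% and 14.5% called. After training 0.341% of X-linked and 0.58% of autosomal genes were called in trx-KD flies, and 2.83% and 4.73% in control flies.

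**Figure D5:**
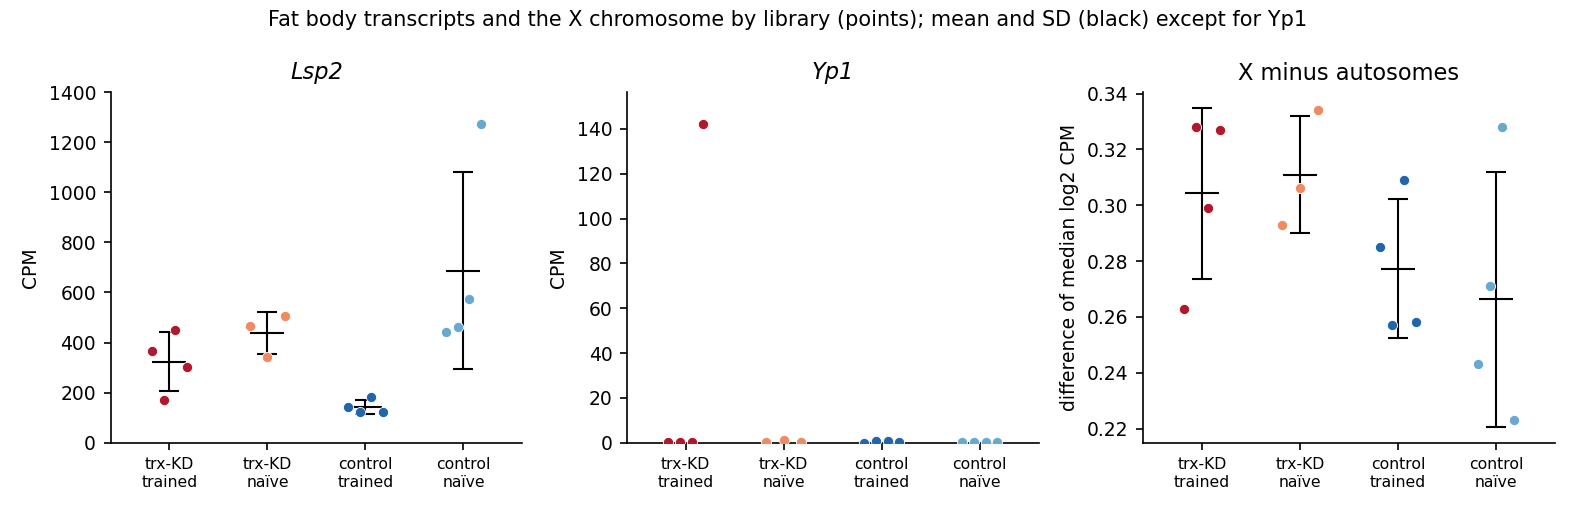
CPM (y axis) of the fat body transcripts Lsp2 and Yp1 and the difference of median log2 CPM between X-linked and autosomal genes (y axis, not from 0) in each library (points), with the mean and SD of each group in black except for Yp1. Replicate 4 of trained trx-KD flies stands alone for Yp1 at 142 CPM, and the X measure overlaps between genotypes in both treatments.

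The genes whose residual pattern was most like each member were found by Pearson's r of log2 CPM over the 15 libraries after the group means were taken off, among 6019 genes. Such values describe these libraries, which share depth and cell makeup within a library. For fru they were fz (0.95), Pgant9 (0.93) and the Kenyon cell marker mub (0.93), and for Sxl they were FBgn0262511 (0.98), Bsg (0.97) and Frq1 (0.97). For dsx they were Gapdh1 (0.94), Rga (0.93) and RpL37A (0.92). For roX1 they were CG42524 (0.90), Amph (0.90) and Hs6st (0.86), and for roX2 they were CG17698 (0.95), FBgn0058178 (0.90) and DIP-lambda (0.90). For msl-2 they were CG14408 (0.94), RabX4 (0.90) and CG31221 (0.90), and for mle they were JMJD6 (0.88), ctrip (0.88) and CG15073 (0.87). The genes lowest in counts had the lowest values: CG7488 (0.78), Not11 (0.76) and CG3009 (0.75) for tra, and Pc (0.80), Gle1 (0.78) and Cp190 (0.78) for tra2. Among the 9 genes themselves, the highest residual r was 0.76, between msl-2 and Sxl, and that between roX1 and roX2 was 0.65.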

How the data were processed

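INTACT RNA-seq of 15 MB libraries was analysed, grouped by the genotype and treatment in the labels. The authors deposited whole-number read counts per gene, without normalization. Per the submitters' processing notes, STAR 2.5.3a, HTSeq 0.7.1 and dm6 were used, and the annotation and the strand setting are not given in the sources used here. The transgenic tag, 0.437% to 0.681% of counts, was left out. Symbols and coordinates come from the BDGP6.54 annotation by gene ID, with 17253 IDs matched. The 9 genes and all lists were chosen with earlier results of these data known. They are named by a rule: all members, called genes of the pathway lists, msl-1, msl-3 and mof, and the 3 genes most like each member.

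Genes were kept by filterByExpr (minimum count 10, total 15), scaled by TMM and tested with edgeR 4.0.16 (quasi-likelihood, R 4.3.3) on the libraries of the groups compared, with the interaction on all 15. P-values were adjusted by Benjamini-Hochberg over all genes tested, with a threshold of 0.1, a level taken from the methods of a paper on another MB data set, and 0.05 was tried as an alternative. SE is the estimate divided by the root of F, and intervals are 95%. CPM is TMM-scaled over all libraries, and log2 CPM used a prior count of 2. Low counts limit tra and tra2 most. The alternatives were DESeq2 1.42.0, other scalings and filters, all libraries in one fit, a replicate block and each library left out. Over 21 pairs of replicates the chi-square per degree of freedom was at least 7.54, so that none repeats a library. Scripts were tested on simulated data. Of 45 pathway genes, 41 were found by symbol, and some list results are not reported here.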

Additional observations from a re-analysis of the deposited data

Results flagged for a closer look

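The tra2 level of 16.6 CPM in replicate 2 of trained control flies lay far from the other 3 libraries of its group, which were at 14.8 to 15 CPM. It was 1 of 27 groups of 4 libraries tested, and chance gives about 1 such group in 20.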

How the results depend on the processing

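No call of a member turned its direction. The 8 member calls met 56 alternatives other than leaving out a library and kept the call in 54, and met 61 with 1 library left out and kept it in 47. The calls lost were those of tra, of roX2 in naïve flies and of dsx in trx-KD flies. With a threshold of 0.05, calls numbered 18 of all genes for training in trx-KD flies, 703 for genotype in naïve flies, with 1 member, and 721 in trained flies. DESeq2 called 244 genes for training in trx-KD flies and 24 for the difference of training responses, and without a filter the training count in trx-KD flies was 91, with all 15 libraries in one fit 125. The replicate numbers did not pair the samples: same-numbered libraries correlated between -0.415 and 0.311 in their deviations from the group means. Of the trained control libraries, 0 of 4 correlated best with the naïve library of their own number. The same held for 0 of the 3 trained trx-KD libraries that had such a partner, which replicate 4 lacked. Of the trx-KD libraries, 2 of 4 trained and 0 of 3 naïve ones correlated best with the control library of their own number. With the replicate block 246 genes were called for training in control flies, 8 in trx-KD flies and 2712 between naïve genotypes, with 4 members. No other count of calls moved by over 1.5 times with the block. The block also called dsx and Sxl between genotypes, dsx at -0.26 in trained flies (adjusted p = 0.0552) and -0.39 in naïve flies (adjusted p = 0.00248), and Sxl at 0.18 in trained flies (adjusted p = 0.0805) and 0.16 in naïve flies (adjusted p = 0.0513).

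With 1 library left out the counts of called genes were 230 to 711 for training in control flies, 4 to 160 in trx-KD flies, with 0 to 1 members, 330 to 2558 between naïve genotypes, with 1 to 4 members, 495 to 1808 between trained genotypes and 0 to 189 for the difference of responses, where 189 came without trained trx-KD replicate 2. For the X measure with genes of at least 10 CPM the differences were 0.034 for training in control flies, -0.00032 between naïve genotypes and -0.036 between trained genotypes.

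Estimates that were not called and lay near 0 changed sign under some settings, and the cause was not tested. For training in control flies tra was at 0.024 with upper-quartile scaling, 0.0025 with library-size scaling, 0.0062 without a filter and 0.011 with all libraries. For training in trx-KD flies msl-2 was at -0.054 with library-size scaling, -0.0053 without a filter, -0.00048 with the filter at 150 counts and -0.031 with the replicate block, and library-size scaling gave -0.00795 for mle and -0.0049 for tra2. Between trained genotypes library-size scaling gave -0.043 for msl-2, -0.019 for mle and -0.039 for tra2, and between naïve genotypes the replicate block gave 0.053 for msl-2.

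Leaving out 1 library, sign changes lay within narrow ranges. For training in control flies these were -0.012 to 0.092 for roX2, -0.12 to 0.0043 for msl-2, -0.017 to 0.16 for Sxl, -0.051 to 0.049 for tra and -0.024 to 0.14 for tra2. For training in trx-KD flies they were -0.048 to 0.036 for roX1, -0.029 to 0.045 for msl-2 and -0.0029 to 0.11 for tra2. Between naïve genotypes they were -0.075 to 0.054 for msl-2, -0.014 to 0.16 for Sxl and -0.026 to 0.14 for tra2, and between trained genotypes -0.0015 to 0.093 for msl-2 and -0.022 to 0.084 for tra2. For the difference of responses they were -0.012 to 0.12 for msl-2, -0.12 to 0.059 for tra2 and -0.044 to 0.16 for dsx. The roX2 to roX1 log2 ratio moved between -0.093 and 0.015 for training in control flies and between -0.076 and 0.043 for naïve genotypes. In trx-KD flies its training difference was 0.14 to 0.22 and no longer passed an unadjusted 0.1 without naïve replicate 2 or 3 (exact permutation p = 0.2 for each). The X measure moved between -0.0037 and 0.031 for training in control flies and between -0.016 and 0.0066 in trx-KD flies. Low counts limit tra and tra2, and 3 or 4 libraries a group limit every test.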
